A study of Mus musculus with 8 samples.

Results

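The collagen genes of inflamed and healthy mouse joints were followed here across cell classes and treatments. They were every gene whose symbol is Col, a number, a and a number, which gave 44 of the 32285 genes in the count tables. By the kind of assembly their chains form, 11 were fibrillar, 9 belonged to basement membranes or the zone beside them, 9 to networks and beaded filaments, and 9 were FACITs (fibril-associated collagens with interrupted triple helices). The remaining 6 were transmembrane or other collagens. Of the 44, 38 had enough counts to be tested across the 12 animals of the unsorted libraries, and 32 in the comparison with sorted cells. The 6 left untested among the 12 animals were Col4a6, Col9a3, Col10a1, Col19a1, Col25a1 and Col26a1. Col19a1 had 0 UMIs (unique molecular identifiers, each counting 1 captured transcript) in the fibroblasts of all 17 animals. This allows up to 0.00827 CPM (counts per 1e6 UMIs). Below, CPM of summed fibroblasts also carry a scaling factor for each animal (TMM), while CPM within a class do not.

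The samples were synovial cells from ankle and wrist joints of mice aged 8 to 10 weeks, of the strain labelled B6-Tg(TNF)197Gkl. Arthritic animals were hTNFtg197+, that is, bore a transgene for human TNF, were given Il23mc for 9 days, and then had no inhibitor (untreated), anti-hTNF (TNF-inhibited) or anti-mIL-17a (IL-17-inhibited), with 3 animals in each group. Each of these 3 single-cell libraries also held 1 untreated wild-type animal, so the healthy group had 3 animals. A further library held sorted FAP+ Pdpn+ cells of 5 arthritic hTNFtg197+ animals with Il23mc and no inhibitor. All libraries were made from viable CD45- cells, so immune cells were sorted away, and hashtag antibodies marked the animals. The anti-hTNF antibody is directed at the product of the human transgene, and anti-mIL-17a at the animals' own IL-17a. The submitters' annotation put 24227 cells into 7 classes, namely 5 of fibroblasts (lining, Mmp3+, Il6+, Cd200+ and Pi16+, 21731 cells in all) and those labelled chondrocytes and osteoblasts.

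Collagens are secreted proteins in which 3 chains wind into a triple helix. Fibrillar chains form the load-bearing fibrils of joint capsule, tendon and bone. Type IV chains form the sheet-like meshwork of basement membranes. Type VI forms beaded filaments around cells, type VIII forms hexagonal lattices, and FACITs sit on the surface of fibrils. In the synovium, the thin lining of the joint, fibroblasts make much of this collagen, and the lining itself lacks a classical basement membrane although its cells deposit type IV collagen around themselves.

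Counts summed per animal over the 5 fibroblast classes ran from 4508588 to 36786390 UMIs, and the 3 healthy animals were the shallowest. The classes made up different shares of the groups. Pi16+ cells were 41.9% to 44.2% of the fibroblasts of the healthy animals and 0.0566% to 3.49% of those of the 9 arthritic animals in the unsorted libraries, and Mmp3+ cells were 2.14% to 5.81% against 31.9% to 55.8%. Comparisons over summed fibroblasts therefore hold both the class mix and the level within a class, and in such sums fewer cells of a type and less RNA per cell cannot be told apart. The healthy labels carry a doubt. An animal's own hashtag was the highest in 10.2% to 35.4% of the fibroblasts of the 3 healthy animals and in at least 96.2% of those of every other animal. A Y-linked UMI was seen in 2.94% of the fibroblasts of the healthy animal processed with the untreated group, in 23.1% of those with the TNF-inhibited and in 17.7% of those with the IL-17-inhibited group. Leaving those cells out left the number of collagens called between untreated and healthy animals at 21, and using only cells whose own hashtag was the highest gave 17 calls, 16 of them among the 21. Between 32 and 51 cell barcodes were shared by each pair of libraries. Markers of other cell types moved with the groups too. The 7 osteoblast markers summed to 359 to 545 CPM in healthy and 65.3 to 211 CPM in arthritic fibroblasts, the 5 keratinocyte markers to 119.7 to 320.4 against 30.2 to 88 CPM, and the 4 leukocyte markers to 1.73 to 4.92 against 14.8 to 86.3 CPM. Nor did the groups overlap for the 4 tendon markers (84.2 to 139 against 172 to 378 CPM), which were higher in arthritic animals, as was Col12a1, for the 7 chondrocyte markers (1406 to 1650 against 945 to 1319), the 4 Schwann cell markers (42.5 to 50.1 against 9.35 to 34.5) or the 4 neutrophil markers (15.3 to 16.5 against 24.8 to 55). In healthy animals 1 Schwann cell and 1 leukocyte marker were at 0. Their part in the results was not tested.

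Type IV collagen genes lie in head-to-head pairs, and their shared start regions are shown because the members of a pair are read against each other below. Col4a1 (8:11198423-11312826, minus strand, mm10) and Col4a2 (8:11312805-11449287, plus strand) share 22 bases at their annotated starts. Between Col4a4 and Col4a3 lie 71 bases, and between Col4a6 and Col4a5, 1308 bases. The stretches before Col4a5 (X:141475385-141689234, plus strand) and Col15a1 (4:47208161-47313167, plus strand) are shown because these genes fell. The Col15a1 stretch is the 250 bases before RefSeq's start, and it ends 149 bases short of the annotated start just given. All are RefSeq sequence on the plus strand of GRCm38.p6, and capitals mark a GGGCGG or a CCAAT.
Col4a1 and Col4a2, chr8:11312805-11312826: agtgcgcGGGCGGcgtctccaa
Col4a4 and Col4a3, chr1:82586850-82586920: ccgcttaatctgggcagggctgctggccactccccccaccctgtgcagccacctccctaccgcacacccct
Col4a5, chrX:141475169-141475384: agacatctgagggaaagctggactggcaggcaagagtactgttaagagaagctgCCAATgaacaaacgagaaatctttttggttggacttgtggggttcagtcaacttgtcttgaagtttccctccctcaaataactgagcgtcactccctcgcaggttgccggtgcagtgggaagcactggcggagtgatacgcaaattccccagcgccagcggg
Col15a1, chr4:47207762-47208011: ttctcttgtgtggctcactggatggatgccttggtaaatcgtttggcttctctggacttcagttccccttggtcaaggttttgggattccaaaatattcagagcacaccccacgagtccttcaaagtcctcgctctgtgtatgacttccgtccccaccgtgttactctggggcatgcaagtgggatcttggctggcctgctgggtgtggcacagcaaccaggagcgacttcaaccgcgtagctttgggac

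The motif TATAAA, the motif GGGCGG and the motif CCAAT were each searched on both strands, that is, also as TTTATA for the first, as CCGCCC for the second and as ATTGG for the last. The 22 bases shared by Col4a1 and Col4a2 were 72.7% G and C and held 1 GGGCGG, which 7.19% of 32851 RefSeq promoters held in the same number of bases before their start. The 71 bases between Col4a4 and Col4a3 held none of the 3 motifs. The 216 bases before Col4a5 held 1 CCAAT, a motif found in 30.8% of promoters over that length, and the 250 bases before RefSeq's start of Col15a1 held none. A promoter was listed for 35 of the 44 collagens.

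Across all 17 animals, 3 genes made up 71.4% of the collagen UMIs of fibroblasts. Col3a1, the chain of type III collagen in supple tissues, gave 29.5%, and Col1a2 and Col1a1, the chains of type I collagen, gave 22.1% and 19.8%. Col5a2, a chain that limits fibril width, followed with 5.64%, then Col6a1 with 4.3% and Col4a1 with 3.55%. The sorted animals weigh most in this pool, giving 964960 of the 2006796 UMIs of Col3a1. The order was not the same in every group: healthy animals had 71503 UMIs of Col1a2 and 60998 of Col3a1. These libraries count transcript ends, so a count does not grow with the length of a transcript, and no length scaling was applied.

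Each class had its own set of collagens. The authors' classes were built from the same cells' expression, so these levels are a description with no test. They are CPM within the class, as mean ± SD over the animals with at least 20 cells of it. Type I collagen was highest in the cells labelled osteoblasts, the bone-forming cells, with Col1a1 at 13804 ± 5216 CPM (n = 15) against 6991 ± 2496 in the class labelled chondrocytes (n = 15) and 1281 ± 823 in lining fibroblasts (n = 17). Osteoblasts were above the class labelled chondrocytes in 12 of 13 animals with both. Of the 7 osteoblast markers, Ibsp (8060 CPM), Bglap (2382), Bglap2 (1885), Alpl (531), Dmp1 (74.2) and Sp7 (40.3) were highest in osteoblasts. Phex averaged 16.7 CPM there and 28.2 in Il6+ fibroblasts. Bglap ranged from 29.7 to 16573 CPM over the 15 animals. Col12a1, a FACIT of tendon and periosteum, was also high in osteoblasts (909.9 ± 300.2) and in Cd200+ fibroblasts (841 ± 303), and these classes did not keep their order, with osteoblasts higher in 8 of 15 animals. Col16a1 and Col27a1 were highest in osteoblasts as well, at 274 and 125 CPM.

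The class labelled chondrocytes held little type II collagen, the defining collagen of cartilage. Col2a1 had a median of 1.22 CPM over its 15 animals, with a range from 0 to 374. Its mean of 28.1 CPM was still the highest of the 7 classes. Of the 7 chondrocyte markers, Chad (719 CPM), Sox9 (189.7), Hapln1 (14.2) and Matn3 (6.43) were highest in this class. Comp stood at 3225 CPM against 3774 in Cd200+ fibroblasts, Acan at 53.7 against 57.6 in osteoblasts and Cnmd at 3.66 against 3.7 in Cd200+ fibroblasts. All 4 tendon markers were highest in the class as well, with Fmod at 2699, Tnmd at 459, Scx at 50.6 and Mkx at 30.2 CPM. Markers of both kinds thus peaked in it, and the label is used below as the submitters' name.

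Type IV collagen was highest in lining fibroblasts, the cells at the joint surface. Col4a1 averaged 809.6 ± 178 CPM in lining fibroblasts, 671 ± 178 in Mmp3+ and 603 ± 161 in Il6+ fibroblasts, but 186 ± 51.3 in Cd200+ fibroblasts and 92.5 ± 51.3 in osteoblasts. The lining was above Mmp3+ fibroblasts in 14 of 15 animals, for Col4a1 as for Col4a2. Col18a1, whose end fragment is endostatin, was highest in Mmp3+ fibroblasts at 81.2 ± 26.7 CPM and above the lining in 14 of 15 animals. The minor type IV chains Col4a5 and Col4a4 were highest in Il6+ fibroblasts, at 9.97 ± 7.34 and 4.57 CPM.

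Other collagens peaked in classes of their own, and of these Col22a1 was nearly limited to 1 class. Col22a1, a FACIT of tissue junctions, averaged 166 CPM in the lining (24.7 to 381 in the 17 animals), 18 ± 12.4 in osteoblasts and at most 3.79 in the other 5 classes. Col8a1 and Col8a2, the chains of type VIII collagen, were highest in Cd200+ fibroblasts at 302 ± 107 and 97.4 ± 29.6 CPM, above osteoblasts in 15 of 15 animals. Col8a2 averaged 47.4 CPM in osteoblasts and 45.4 in the class labelled chondrocytes, while Col8a1 averaged 13.9 CPM in Mmp3+ fibroblasts and less in Il6+ and lining fibroblasts. Col14a1, a FACIT of dermis and tendon, stood at 442 ± 126 CPM in Pi16+ and 403 ± 159 in Il6+ fibroblasts, which did not keep their order (Pi16+ higher in 5 of 12 animals). It also averaged 270.4 CPM in the class labelled chondrocytes, 154 in Mmp3+ and 127 in Cd200+ fibroblasts. Col15a1, a proteoglycan of the zone beside basement membranes, averaged 53.2 ± 54 CPM in Pi16+ and 44 ± 43.1 in Il6+ fibroblasts, again without a fixed order (6 of 12), 36.7 CPM in the class labelled chondrocytes and 21.9 in Cd200+ fibroblasts. The SD of Col15a1 was as large as its mean, and the healthy animals stood far above the arthritic ones in Il6+ fibroblasts, as given below.

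**Figure D1:**
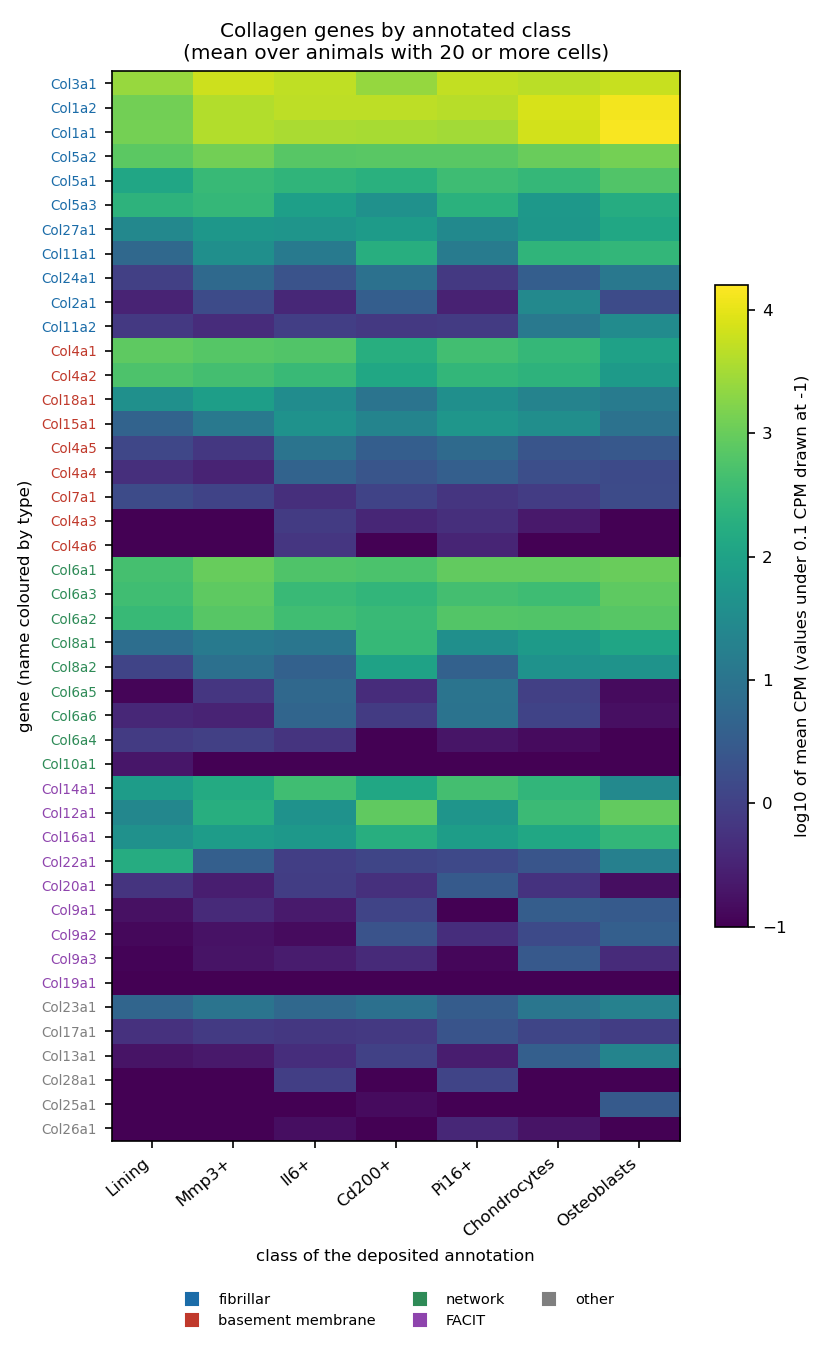
Level of each of the 44 collagens (vertical axis, names coloured by type) in the 7 annotated classes (horizontal axis), as the log10 of the mean CPM over animals with at least 20 cells of the class (colour). Col1a1 peaks in osteoblasts, Col4a1 and Col22a1 in the lining, Col18a1 in Mmp3+, Col8a1 in Cd200+ and Col14a1 in Pi16+ fibroblasts.

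The first comparison asked which collagens differ between arthritic and healthy fibroblasts. Untreated arthritic fibroblasts had more Col4a1, Col4a2, Col18a1, Col12a1 and Col5a2 than healthy ones, and less Col15a1, Col4a5, Col6a5, Col6a6 and Col8a1, while type I collagen did not pass the test. With edgeR's quasi-likelihood test over all genes and a Benjamini-Hochberg adjusted p under 0.05, 10 of the 38 collagens tested were higher and 11 lower, or 55.3%, against 28.7% of the 14348 genes tested (14.4% higher and 14.3% lower). The median log2 fold change was -0.04 over the collagens and 0.01 over all genes. Highly counted genes are called more easily, and these shares are not matched for level. In none of the 21 did the values of the 2 groups of 3 animals overlap, which calling genes from the same animals favours. Col1a1, Col3a1, Col5a1, Col7a1, Col9a1, Col11a2 and Col23a1 did not overlap either and did not pass. The share of all genes without overlap is not given, so this is a description only. With the library as a further term 11 of the 21 were called, and Col5a2, Col4a5 and Col8a1 were among those that were not. With equal weight of Il6+, Cd200+ and lining classes 9 of the 21 were called, and Col6a5 and Col6a6 were not. Col27a1, Col6a6 and Col22a1 then changed direction. Single left-out animals ended the calls of Col4a4, Col5a3, Col6a3, Col8a2, Col17a1, Col22a1 or Col27a1 and of no other collagen.

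Among the fibrillar collagens 4 of 11 rose, none fell and the median was 0.36. Col5a2 stood at 567, 462 and 447 CPM in the healthy and 935, 959.8 and 1023 CPM in the untreated animals. Every untreated animal was above every healthy one, and the log2 fold change was 0.95 ± 0.17 (SE, edgeR adjusted p = 9.0e-04). Col5a3, which like Col5a2 is a type V chain, rose by 0.96 ± 0.30 (edgeR adjusted p = 0.027), from a mean of 112 to 224 CPM. Col24a1, a minor fibrillar chain of bone, stood at 0.801, 0.157 and 0.574 CPM in healthy and 4.65, 2.86 and 4.94 CPM in untreated animals, a log2 fold change of 2.89 ± 0.45 (edgeR adjusted p = 3.7e-04). Col27a1 rose by 0.45 ± 0.14 (edgeR adjusted p = 0.029). The most abundant chains did not pass. Col3a1 had means of 2963 CPM in healthy and 4353 CPM in untreated animals (0.52 ± 0.22, edgeR adjusted p = 0.092), Col1a1 2234 and 2698 CPM (edgeR adjusted p = 0.41), Col1a2 3546 and 3509 CPM (edgeR adjusted p = 0.84), and Col5a1 282 and 222 CPM (edgeR adjusted p = 0.082).

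The 8 basement membrane collagens tested split, with 3 higher, 3 lower and 2 that did not pass. Col4a1 and Col4a2 encode the common type IV chains and rose together. Col4a1 stood at 388, 353 and 340.3 CPM in healthy and 715, 834 and 751 CPM in untreated animals, 2.07-fold higher (log2 1.05 ± 0.14, edgeR adjusted p = 8.6e-05). Col4a2 stood at 216, 218 and 214 CPM against 416, 494 and 442 CPM (log2 1.02 ± 0.13, edgeR adjusted p = 9.0e-05). Healthy and untreated animals were well apart for both. Col18a1 rose 2.77-fold, from 19.9, 22.4 and 21.4 CPM to 71, 49.1 and 60.9 CPM (log2 1.47 ± 0.27, edgeR adjusted p = 0.0013).

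The minor type IV chains went the other way. Col4a5, a chain of the alternative type IV networks of kidney and other epithelia, stood at 11.7, 13.5 and 13.4 CPM in healthy and 2.91, 5.56 and 3.19 CPM in untreated animals (log2 -1.73 ± 0.34, edgeR adjusted p = 0.0018). Col4a4, a partner of Col4a5, stood at 6.87, 7.08 and 6.12 against 1.34, 3.92 and 1.84 CPM (log2 -1.48 ± 0.42, edgeR adjusted p = 0.017). All 3 untreated animals were below all 3 healthy ones for both. Col15a1 went from 109, 89.9 and 92.2 CPM to 10.3, 14.1 and 16.1 CPM, with no overlap (edgeR adjusted p = 7.2e-07). Thus Col4a1 and Col4a2, which share a start, moved up together, and Col4a4 moved down, while its neighbour Col4a3, at 1.03, 0.787 and 1.34 against 0.394, 1.09 and 0.429 CPM, overlapped between the groups and did not pass. Col4a5 is X-linked and the animals' sexes differed within the groups: a Y-linked UMI was seen in 57.8% of the fibroblasts of untreated animal 2, which had the highest Col4a5 of the 3, and in 4.09% and 3.48% of those of untreated animals 1 and 3. Its part in the result was not tested.

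In the network group 2 of 8 rose and 4 fell. Col6a3, the chain that joins Col6a1 and Col6a2 in the common type VI monomer, rose from 377, 308 and 353 CPM to 521, 537 and 617 CPM (log2 0.66 ± 0.18, edgeR adjusted p = 0.015). Its partners differed by -0.02 each, with SEs of 0.18 for Col6a1 and 0.19 for Col6a2 (edgeR adjusted p = 0.96 for both). Col6a5 and Col6a6 can take the place of Col6a3 in the monomer, and both fell. Col6a5 went from 21.9, 12.8 and 5.55 CPM to 1.1, 1.22 and 1.35 CPM (log2 -3.50 ± 0.53, edgeR adjusted p = 2.8e-04), and Col6a6 from 12, 7.24 and 3.83 to 1.65, 1.34 and 1.44 CPM (log2 -2.47 ± 0.37, edgeR adjusted p = 2.6e-04). The healthy animals spread widely for both, and each was still above every untreated animal. On average both were highest in Pi16+ fibroblasts, which were 41.9% to 44.2% of healthy and 0.933% to 1.4% of untreated fibroblasts. The part of this class mix was not tested. Col6a4, a further chain of this kind, had 1 UMI in all healthy and 73 UMIs in all untreated fibroblasts, a ratio of 16 per UMI sequenced with a 95% exact counting interval of 2.78 to 641. Col8a1 fell from 52.5, 54.9 and 84.8 CPM to 14.9, 23.5 and 21.1 CPM (log2 -1.70 ± 0.35, edgeR adjusted p = 0.0023), and Col8a2 from a mean of 14 to 7.31 CPM. Within Cd200+ fibroblasts, its highest class, Col8a1 stood at 287, 213 and 340 CPM in healthy and 278, 309 and 273 CPM in untreated animals. Cd200+ cells were 8.81% to 9.93% of healthy and 4.6% to 7.59% of untreated fibroblasts. The part of this shift in the summed fall was not tested.

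Of the 7 FACITs tested, Col12a1 rose and Col9a2 and Col22a1 fell. Col12a1 stood at 41.8, 52.7 and 48.6 CPM in healthy and 109.5, 118 and 135 CPM in untreated animals, 2.47-fold higher (log2 1.31 ± 0.16, edgeR adjusted p = 5.7e-05). Col22a1 stood at 34.4, 40.8 and 28.5 against 16.5, 15.6 and 15.2 CPM (log2 -1.18 ± 0.32, edgeR adjusted p = 0.014). Neither overlapped between the groups. Col9a2, a cartilage FACIT, fell by 2.38 ± 0.55 (edgeR adjusted p = 0.0056) and was at most 1.57 CPM in any animal. Col14a1, with means of 191 CPM in healthy and 215 CPM in untreated animals, did not pass (edgeR adjusted p = 0.67). Of the 4 other collagens tested Col28a1 (-3.00 ± 0.48, edgeR adjusted p = 4.7e-04) and Col17a1, a transmembrane collagen of keratinocytes (-1.86 ± 0.58, edgeR adjusted p = 0.028), fell. Col17a1 was at 3.83 CPM in the healthy animal of the IL-17-inhibited library and at 0.572 and 0.787 CPM in the other two, and it moved with the keratinocyte markers, of which 5 of 5 were lower in untreated animals. Their part in its fall was not tested.

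**Figure D2:**
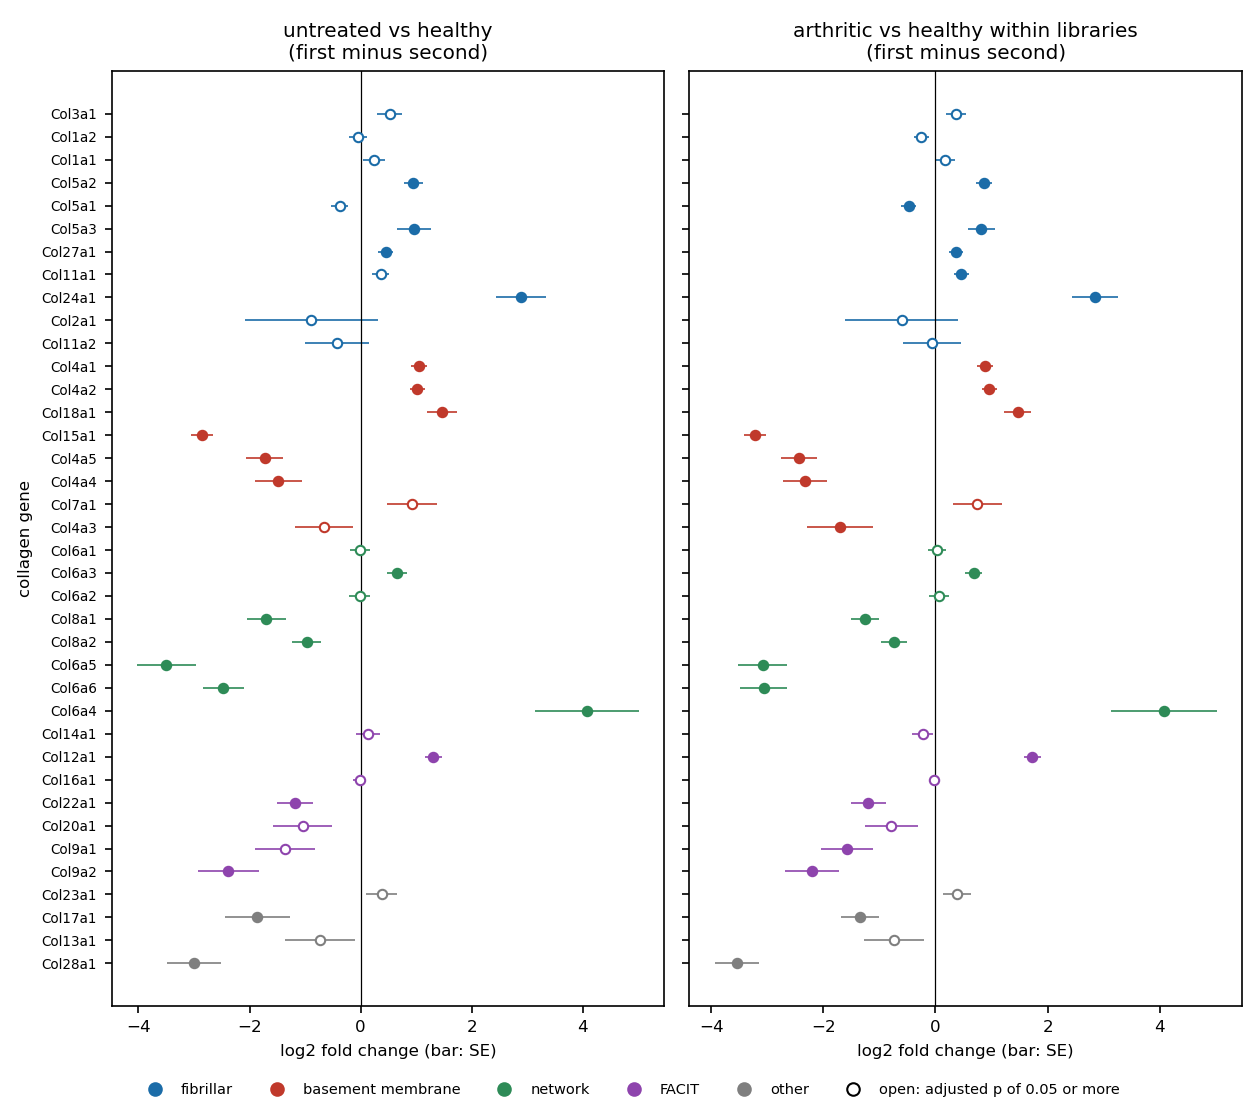
Log2 fold change (points) and SE (bars) of the 38 tested collagens, untreated against healthy (left) and all arthritic against healthy within libraries (right); filled points passed an adjusted p under 0.05 and colours mark the type. Col4a1 and Col4a2 lie near 1 on the left and Col15a1 at -2.86.

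Among arthritic animals each treatment was a library of its own, but each unsorted library held 1 healthy animal. The 9 arthritic animals were therefore also set against the healthy animal of their own library. Of the 38 collagens, 11 were higher and 14 lower (65.8%, against 40.2% of all genes, 20.1% in each direction). Each of the 11 was higher, and each of the 14 lower, in 3 of 3 libraries. The calls were made from these same differences, so this agreement is no separate support. Col12a1 rose by 1.73 ± 0.15 (edgeR adjusted p = 3.4e-06), Col4a2 by 0.96 ± 0.13 (8.4e-05), Col4a1 by 0.89 ± 0.14 (2.4e-04), Col18a1 by 1.47 ± 0.24 (4.5e-04) and Col5a2 by 0.87 ± 0.14 (2.8e-04). Further fibrillar chains that rose were Col24a1, Col5a3, Col27a1 and Col11a1, the last a chain of cartilage fibrils, at 0.46 ± 0.13 (edgeR adjusted p = 0.012), while Col5a1 fell by 0.48 ± 0.13 (edgeR adjusted p = 0.011). Of the minor type IV chains Col4a5 (-2.44 ± 0.32), Col4a4 (-2.33 ± 0.39) and Col4a3 (-1.71 ± 0.59, edgeR adjusted p = 0.034) all fell. So did the network chains Col6a5 (-3.08 ± 0.44), Col6a6 (-3.06 ± 0.42), Col8a1 (-1.26 ± 0.25) and Col8a2 (-0.74 ± 0.24), the FACITs Col22a1 (-1.20 ± 0.31), Col9a1 (-1.58 ± 0.47) and Col9a2 (-2.20 ± 0.48), and Col28a1 and Col17a1, each with an edgeR adjusted p of at most 0.025. Left-out animals ended the calls of up to 8 collagens, the most without the healthy animal of the TNF-inhibited library, namely Col4a3, Col5a1, Col5a3, Col8a2, Col9a1, Col11a1, Col22a1 and Col27a1. With all 7 classes Col9a1 no longer differed in that direction (0.03). Col3a1 (0.36 ± 0.18, edgeR adjusted p = 0.13) and Col1a2 (-0.25 ± 0.13, edgeR adjusted p = 0.14) did not pass.

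Within the fibroblast classes, Col15a1 was lower and Col4a1 higher in arthritic cells of several classes, so these differences were also measured inside single classes. Counts were summed per animal within a class for animals with at least 20 cells. In lining fibroblasts, 9 collagens were higher and 4 lower in untreated than in healthy animals, of 21 tested (background 13.2%). In Il6+ fibroblasts, 3 were higher and 2 lower of 26 (background 6.91%), and in Cd200+ fibroblasts 1 was higher and 1 lower of 23 (background 4.27%). In the class labelled chondrocytes 4 rose and 2 fell of 23 (background 12.9%), and in osteoblasts, with 2 animals a group, 8 rose and 1 fell of 26 (background 5.54%). Too few healthy Mmp3+ and arthritic Pi16+ cells were there for this contrast in those classes.

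Col15a1 fell in every class in which it was called. In Il6+ fibroblasts it stood at 151, 132 and 109 CPM in the healthy animals, 20.7, 31.8 and 31.4 CPM in untreated, 19.9, 11.7 and 8.58 CPM in TNF-inhibited and 25.2, 28.4 and 23.3 CPM in IL-17-inhibited animals. No arthritic animal reached the lowest healthy one. For all 9 arthritic against the 3 healthy animals within libraries, the log2 fold change was -2.48 ± 0.20 in Il6+ (edgeR adjusted p = 2.8e-06), -2.54 ± 0.52 in lining (0.0028), -2.42 ± 0.30 in Cd200+ fibroblasts (7.5e-05) and -1.56 ± 0.26 in the class labelled chondrocytes (0.0011). The backgrounds of this contrast were 12.9%, 18.7%, 7.17% and 16% of genes in that order. In Pi16+ fibroblasts, with 4 arthritic and 2 healthy animals, Col15a1 (-3.10 ± 0.37, edgeR adjusted p = 0.0019) and Col8a1 (-2.32 ± 0.37) fell, of 19 tested (background 1.63%).

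Col4a1 rose by 0.96 ± 0.17 in the lining (edgeR adjusted p = 8.9e-04) and by 1.05 ± 0.16 in Il6+ fibroblasts (0.0012) of untreated against healthy animals. Col12a1 rose by 1.19 ± 0.15 in Cd200+ fibroblasts (edgeR adjusted p = 1.9e-04), from 302, 406 and 314 CPM to 786, 707 and 713 CPM, and by 0.88 ± 0.17 in Il6+ fibroblasts, where its level was under 70 CPM. In osteoblasts Col3a1 (1.58 ± 0.36), Col5a1 (1.54 ± 0.31) and Col12a1 (1.30 ± 0.28) rose, each with an edgeR adjusted p of at most 0.021. Over all arthritic animals, 6 against 2 healthy ones, 5 of 26 collagens rose in osteoblasts and 1 fell (background 4.83%), and Col12a1 rose by 1.47 ± 0.20 (edgeR adjusted p = 0.0014).

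**Figure D3:**
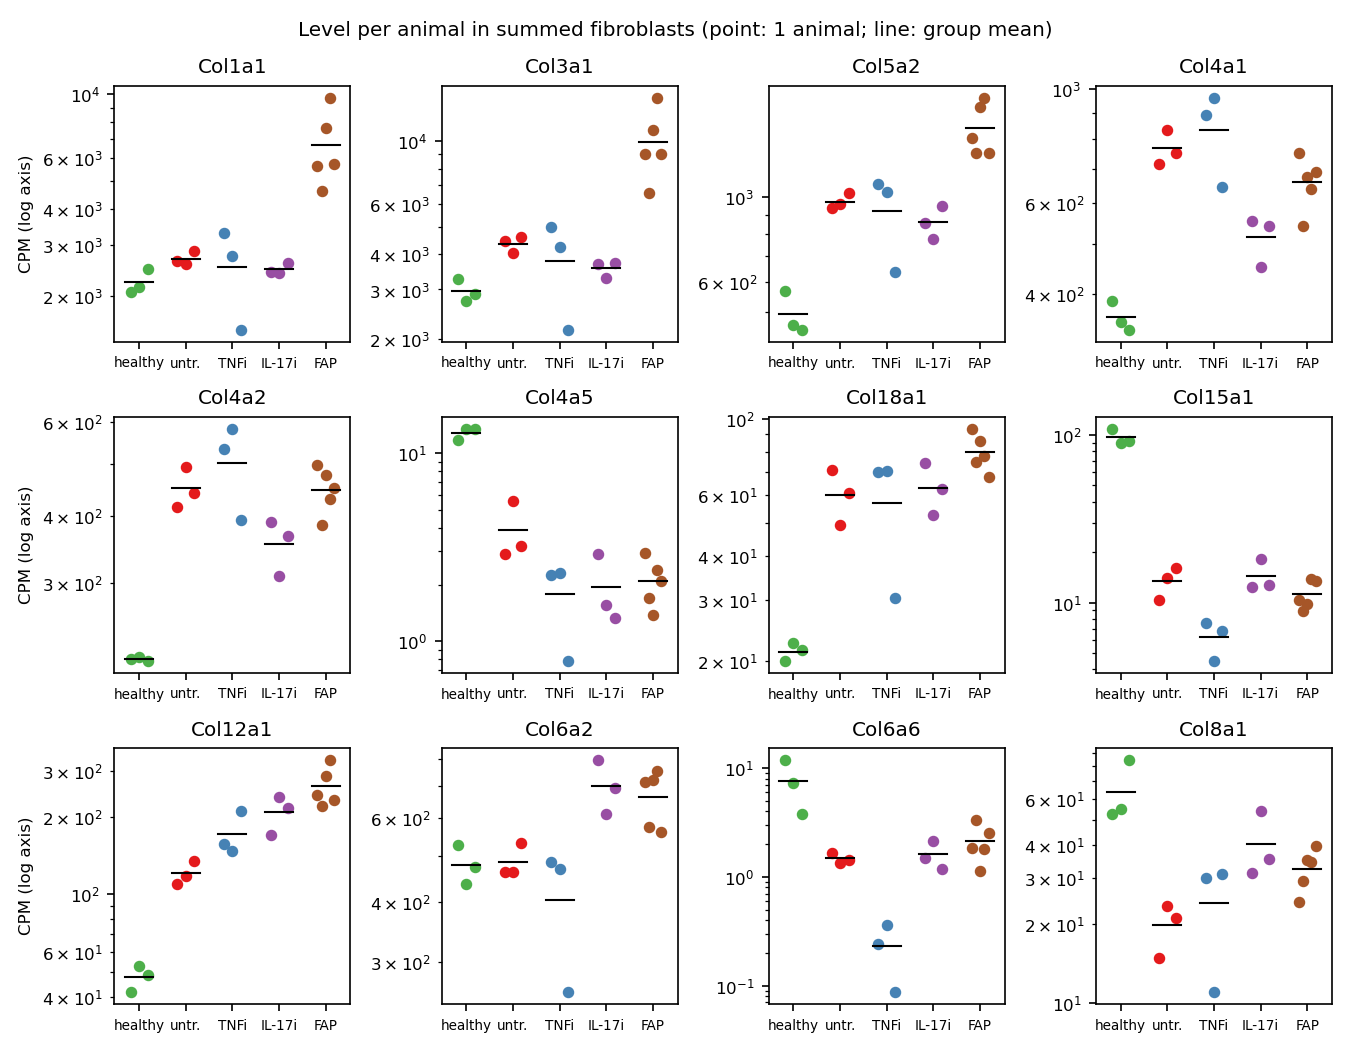
Level in CPM of summed fibroblasts (log axis) of selected collagens in each of the 17 animals (points) by group, with the group mean as a line. All 9 arthritic animals of the unsorted libraries lie below the 3 healthy ones for Col15a1 and above them for Col4a1 and Col12a1.

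In the lining, further collagens differed between untreated and healthy animals. Col3a1 in the lining stood at 900, 555 and 527 CPM in healthy and 2011, 1683 and 2002 CPM in untreated animals, a rise of 1.75 ± 0.26 (edgeR adjusted p = 2.2e-04). Col5a2 rose there by 1.91 ± 0.25 (edgeR adjusted p = 6.9e-05), from 291, 240 and 181 CPM to 685, 762 and 853 CPM. Both were without overlap between the groups. Col8a1 fell from 43.4, 24.9 and 5.33 CPM to 0.96, 1.22 and 1.6 CPM (-4.10 ± 0.69, edgeR adjusted p = 7.5e-04). The lining was its lowest class, with a mean of 7.53 CPM over 17 animals. Its healthy values came from 49, 42 and 23 cells, so this fall rests on few counts. Col22a1, which was highest in the lining, fell from 300, 354 and 381 CPM to 173, 129 and 150 CPM (-0.97 ± 0.22, edgeR adjusted p = 0.0078).

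Whether the arthritic effect differed between classes was tested as an interaction, with the animal as a block. The main pair was Cd200+ and Il6+ fibroblasts, given last, and the lining in place of Cd200+ was an alternative. Between the lining and Il6+ fibroblasts of the 12 animals it differed for 6 of 26 collagens (background 5.74% of 11283 genes). The log2 effect in the lining minus that in Il6+ fibroblasts was 1.33 ± 0.25 for Col3a1 (edgeR adjusted p = 0.0041), 1.49 ± 0.21 for Col5a2 (4.0e-04), 1.58 ± 0.16 for Col6a3 (1.5e-05), 1.46 ± 0.21 for Col5a3 (4.0e-04) and 0.63 ± 0.17 for Col6a1 (0.042). For Col8a1, which was low in both classes (means of 7.53 and 11.2 CPM), it was -3.15 ± 0.40 (edgeR adjusted p = 1.3e-04). Within libraries, the arthritic effect on Col6a3 was 1.37 in the lining and -0.21 in Il6+ fibroblasts, that on Col5a3 1.06 and -0.39, that on Col3a1 1.47 and 0.19, and that on Col6a1 0.17 and -0.46. Col22a1 (-2.44 ± 0.76, edgeR adjusted p = 0.069), Col4a1 (0.09 ± 0.17) and Col15a1 (-0.05 ± 0.38) did not pass this test. Between Cd200+ and Il6+ fibroblasts, edgeR called no collagen of 26 (background 0.672%), and 6 had an unadjusted p under 0.05.

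**Figure D4:**
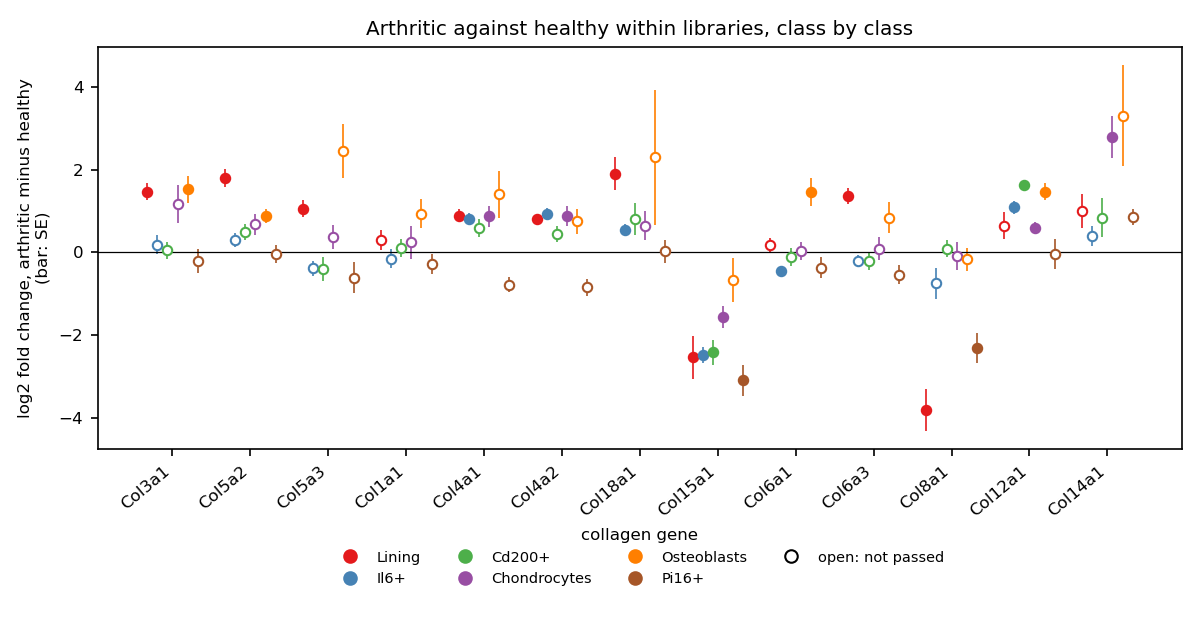
Log2 fold change (points) and SE (bars) of arthritic against healthy animals within libraries, for 13 collagens (horizontal axis) in 6 of the annotated classes (colours); filled points passed an adjusted p under 0.05 and Mmp3+ fibroblasts had too few healthy animals. Col15a1 lies below 0 in every class shown, and Col3a1, Col5a2 and Col6a3 lie higher in the lining than in Il6+ fibroblasts.

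The inhibitors moved few collagens in summed fibroblasts. Against untreated arthritic animals, 3 of 38 collagens were lower and none higher with TNF inhibition (7.89%, against 5.55% of all genes, 2.53% higher and 3.02% lower), and 1 was higher and 2 lower with IL-17 inhibition (7.89%, against 8.45%, 3.8% higher and 4.65% lower). These shares are near the background. In a fit with the library as a further term, in which each effect rests on 1 healthy animal per library, edgeR called 0 collagens in both comparisons, with 1 and 3 at an unadjusted p under 0.05. Marker sums moved with the inhibitors too. The 4 lining markers summed to 12232 to 15953 CPM with TNF inhibition against 6948 to 10305 in untreated animals. None of the 4 passed on its own, and their median log2 fold change was -0.19. Prg4 outweighs the others in this sum, averaging 59099 CPM in lining fibroblasts against at most 700.4. With IL-17 inhibition the 6 fibroblast markers stood at 11893 to 12539 against 16080 to 17002 CPM, the 5 keratinocyte markers at 70.1 to 88 against 30.2 to 33.5, the 5 muscle markers at 43.9 to 74.3 against 157 to 217 and the 4 neutrophil markers at 24.8 to 30 against 44.3 to 55, with 1 of the 4 at 0 in the former. Muscle markers were also lower with TNF inhibition (67.2 to 94.6 CPM) and keratinocyte markers higher (50 to 65.5). Mural (27.2 to 29.8 against 46.9 to 47.9), chondrocyte (1111 to 1194 against 1264 to 1319) and neutrophil sums (34.1 to 38) were lower there too. With IL-17 inhibition leukocyte (27 to 86.3 against 20.6 to 25.1) and Schwann cell sums (23.5 to 34.5 against 15.4 to 18.8) were higher. Of 7 osteoblast markers 4 passed as higher with IL-17 inhibition. Erythroid sums were lower with both inhibitors. Their part in the inhibitor results was not tested.

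With TNF inhibition, Col15a1 stood at 7.57, 4.47 and 6.77 CPM against 10.3, 14.1 and 16.1 CPM in untreated animals, without overlap and further from the healthy level (edgeR adjusted p = 0.015). Col6a6 stood at 0.24, 0.362 and 0.0867 against 1.65, 1.34 and 1.44 CPM (-2.44 ± 0.48, edgeR adjusted p = 0.019). Col14a1 stood at 169, 116 and 88.1 against 250.5, 162 and 233 CPM, and these groups overlapped (-0.80 ± 0.21, edgeR adjusted p = 0.042). All 3 collagens were highest in Pi16+ and Il6+ fibroblasts. Il6+ cells were 23.8% to 38% of the fibroblasts with TNF inhibition and 42.5% to 50.6% in untreated animals. Pi16+ cells were 0.0566% to 0.354% against 0.933% to 1.4%, and the part of this class mix was not tested. Each call was lost without some single animals: 1 was left without TNF-inhibited animal 2, untreated animal 1 or untreated animal 2, and 0 without untreated animal 3, while 5 collagens were called without TNF-inhibited animal 1. The third TNF-inhibited animal was low in most abundant collagens. Its Col3a1 was 2153 CPM against 4999 and 4220 CPM in the others of its group, and collagens were 0.832% of its fibroblast UMIs against 1.58% and 1.41%. Col3a1 (edgeR adjusted p = 0.61) and Col1a1 (0.82) did not pass.

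Within the lining, however, TNF-inhibited animals had less type I collagen than untreated ones. Lining Col1a1 stood at 584, 334 and 369 CPM against 1265, 862 and 1052 CPM in untreated animals, without overlap (-1.15 ± 0.23, edgeR adjusted p = 0.024). Col1a2 (-1.25 ± 0.23, edgeR adjusted p = 0.017) and Col14a1 (-1.64 ± 0.30, 0.017) fell as well, so 3 of 21 collagens were lower there and none higher (background 1.33%). In Cd200+ fibroblasts Col12a1 rose, from 786, 707 and 713 CPM to 1176, 1304 and 1225 CPM (0.89 ± 0.14, edgeR adjusted p = 0.012, 1 of 23, background 1.07%). In Mmp3+ (background 4.21%) and Il6+ fibroblasts (background 0.254%) edgeR called 0 of 30 and 0 of 26 collagens, with 9 and 4 at an unadjusted p under 0.05. In the class labelled chondrocytes it called 0 of 23 (6 unadjusted) and 0% of all genes, and in osteoblasts 0 of 26 (7 unadjusted, background 0.725%).

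With IL-17 inhibition, Col4a1 was lower and Col12a1 higher than in untreated animals. Col4a1 stood at 554, 451 and 541 CPM against 715, 834 and 751 CPM, below every untreated and above every healthy animal (-0.56 ± 0.13, edgeR adjusted p = 0.024). Col12a1 stood at 170.4, 238 and 215 CPM against 109.5, 118 and 135 CPM (0.80 ± 0.15, edgeR adjusted p = 0.0096). Neither gene overlapped between the groups. Cd200+ cells were 13.2% to 15.9% of the fibroblasts with IL-17 inhibition and 4.6% to 7.59% in untreated animals. Of the fibroblast classes they had the most Col12a1, and also the most Col8a1 and Col8a2 of the network group. The part of this class mix was not tested. Col4a3, at 0.22, 0.119 and 0.108 CPM, was lower (-2.19 ± 0.54, edgeR adjusted p = 0.028). The call of Col4a1 was kept with all 6 animals and without IL-17-inhibited animal 1, and lost without each of the other 5. That of Col4a3 was lost without IL-17-inhibited animal 2 or 3 or untreated animal 2, while that of Col12a1 was kept without each of the 6. Without IL-17-inhibited animal 2 or untreated animal 2, 1 collagen was called, and without IL-17-inhibited animal 1, 5 were. All 8 network collagens tested had a positive log2 fold change with a median of 0.65, and none passed. Of these Col6a2 stood at 797, 612 and 694 against 463, 462 and 533 CPM (0.54 ± 0.19, edgeR adjusted p = 0.094).

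Within Mmp3+ and Il6+ fibroblasts Col4a1 and Col12a1 were called in the same directions. These cells are part of the sums above, so this is no separate support. In Mmp3+ fibroblasts Col4a1 (-0.45 ± 0.11, edgeR adjusted p = 0.027) and Col11a1 (-0.74 ± 0.20, 0.04) were lower and Col12a1 higher (0.46 ± 0.10, 0.017) with IL-17 inhibition, 3 of 30 called (background 10%). With a minimum of 10 cells, 0 were higher and 1 lower of 29 there (background 6.41%), so the call of Col12a1 was lost. In Il6+ fibroblasts Col4a1 (-0.68 ± 0.16, edgeR adjusted p = 0.039) was lower and Col12a1 (0.58 ± 0.14, 0.047) higher, 2 of 26 called (background 2.24%). In osteoblasts Col4a2 fell (-0.99 ± 0.20, edgeR adjusted p = 0.048, 1 of 26, background 0.453%). A minimum of 10 cells gave 2 calls of 26 in osteoblasts, and a minimum of 40 cells 0 of 25. In the lining (background 0.495%) and Cd200+ fibroblasts (background 1.48%) edgeR called 0 of 21 and 0 of 23, with 1 and 8 at an unadjusted p under 0.05. In the class labelled chondrocytes it called 0 of 23 (4 unadjusted, background 0.234%).

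Compared directly, IL-17-inhibited animals had 4 collagens higher and 2 lower than TNF-inhibited ones (15.8%, against 7.6% of all genes, 4.54% higher and 3.05% lower). Col15a1 (1.25 ± 0.21, edgeR adjusted p = 0.0042), Col6a6 (2.60 ± 0.47, 0.0058), Col6a4 (1.95 ± 0.41, 0.012) and Col6a2 (0.81 ± 0.19, 0.021) were higher. Col4a1 (-0.68 ± 0.13, edgeR adjusted p = 0.0095) and Col4a2 (-0.49 ± 0.13, 0.039) were lower. Col4a1 stood at 889, 962 and 645 CPM with TNF inhibition, above the 451 to 554 CPM with IL-17 inhibition. The calls of Col4a1, Col4a2 and Col6a2 were lost without at least 1 of the 6 animals, and 11 collagens were called without TNF-inhibited animal 1. With the library as a further term edgeR called 0 of the 38, with 3 at an unadjusted p under 0.05.

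Neither inhibited group was at the healthy level. The comparisons with healthy animals share those 3 animals, so their values are only set side by side. TNF-inhibited animals had 8 collagens higher and 16 lower than healthy ones (63.2%, against 38.9% of all genes, 19.6% higher and 19.3% lower), and IL-17-inhibited animals 12 and 9 (55.3%, against 35.6%, 17.9% higher and 17.7% lower). The log2 fold change of Col15a1 was -4.01 with TNF and -2.77 with IL-17 inhibition, that of Col4a1 1.17 and 0.49, that of Col12a1 1.81 and 2.10, that of Col18a1 1.40 and 1.55, and that of Col4a5 -2.78 and -2.79. Col1a2 was lower with TNF inhibition (-0.46 ± 0.16, edgeR adjusted p = 0.033), and Col6a3 higher with IL-17 inhibition (0.92 ± 0.18, edgeR adjusted p = 0.0017).

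All collagens together took a similar share of fibroblast UMIs in healthy and arthritic animals of the unsorted libraries. The share was 1.45% ± 0.0924 in healthy, 1.54% ± 0.0798 in untreated, 1.27% ± 0.392 in TNF-inhibited and 1.48% ± 0.04 in IL-17-inhibited animals (SD, n = 3 each). Within libraries the healthy animals were 0.0196 percentage points higher than the arthritic ones (two-sided exact permutation test over 64 arrangements, p = 0.859, adjusted p = 0.859 over 8 measures). The basement membrane share was 0.084% ± 0.0054 in healthy animals and 0.129% ± 0.01 in untreated ones, and lower in the healthy animal of 3 of 3 libraries. Its exact permutation p of 0.0156 was the smallest that 64 arrangements allow, and became 0.0625 after adjustment. Among the 3 arthritic groups the network share differed, at 0.177% ± 0.0152 in untreated, 0.143% ± 0.0421 in TNF-inhibited and 0.242% ± 0.0258 in IL-17-inhibited animals (exact permutation test over 1680 assignments, p = 0.00714, adjusted p = 0.0286). The FACIT share was 0.0415%, 0.0343% and 0.0496% (exact permutation p = 0.0179, adjusted p = 0.0429).

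Ratios between partner chains were compared within each animal. Type I collagen contains Col1a1 and Col1a2 chains in one molecule, and the ratio of their UMIs was 0.629 ± 0.0278 in healthy, 0.769 ± 0.019 in untreated, 0.936 ± 0.111 in TNF-inhibited and 0.811 ± 0.0143 in IL-17-inhibited animals (SD, n = 3 each). All 9 arthritic animals were above all 3 healthy ones, and the within-library difference, -0.41 on the log2 scale for healthy minus arthritic, had an exact permutation p of 0.0156 (adjusted p = 0.0625). The 3 arthritic groups did not pass the test of their difference (exact permutation p = 0.0571, adjusted p = 0.0914), and sorted animals, at 0.953 ± 0.0846 (SD, n = 5), were higher than untreated ones (exact permutation p = 0.0179, adjusted p = 0.0476). The ratio also differed between classes: in healthy animals it was 0.564 ± 0.0379 in Pi16+ and 0.657 ± 0.0694 in Il6+ fibroblasts, and in untreated animals 0.885 ± 0.0229 in Mmp3+ and 0.638 ± 0.0221 in Il6+ fibroblasts. Pi16+ cells were common in healthy and Mmp3+ cells in arthritic animals, and the part of this class mix in the ratio was not tested.

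The ratio of Col4a1 to Col4a2, the head-to-head pair, was 1.67 ± 0.114 in healthy, 1.7 ± 0.016 in untreated, 1.65 ± 0.0121 in TNF-inhibited and 1.45 ± 0.0273 in IL-17-inhibited animals. The 3 IL-17-inhibited animals were below all others of the unsorted libraries, and the 3 arthritic groups differed (exact permutation p = 0.00357, adjusted p = 0.0286). The FAP-sorted animals, which had no inhibitor, stood at 1.47 ± 0.0544 (SD, n = 5), and differed from untreated ones by -0.21 on the log2 scale (exact permutation p = 0.0179, adjusted p = 0.0476). Col6a1 to Col6a2, neighbours on chromosome 10, was likewise lowest with IL-17 inhibition, at 1.47 ± 0.013, 1.47 ± 0.0364, 1.49 ± 0.0417 and 1.31 ± 0.0167 (exact permutation p = 0.0214, adjusted p = 0.0429). On the log2 scale the healthy animal of the IL-17-inhibited library stood at 0.67 for the type IV pair and 0.54 for the type VI pair, above the 0.51 to 0.56 and 0.38 to 0.41 of the 3 treated animals in that library. The healthy animals of the untreated and TNF-inhibited libraries stood at 0.85 and 0.69 for the type IV pair, and at 0.57 and 0.55 for the type VI pair. Each library has a single healthy animal, and treatment and library cannot be told apart among arthritic animals.

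**Figure D5:**
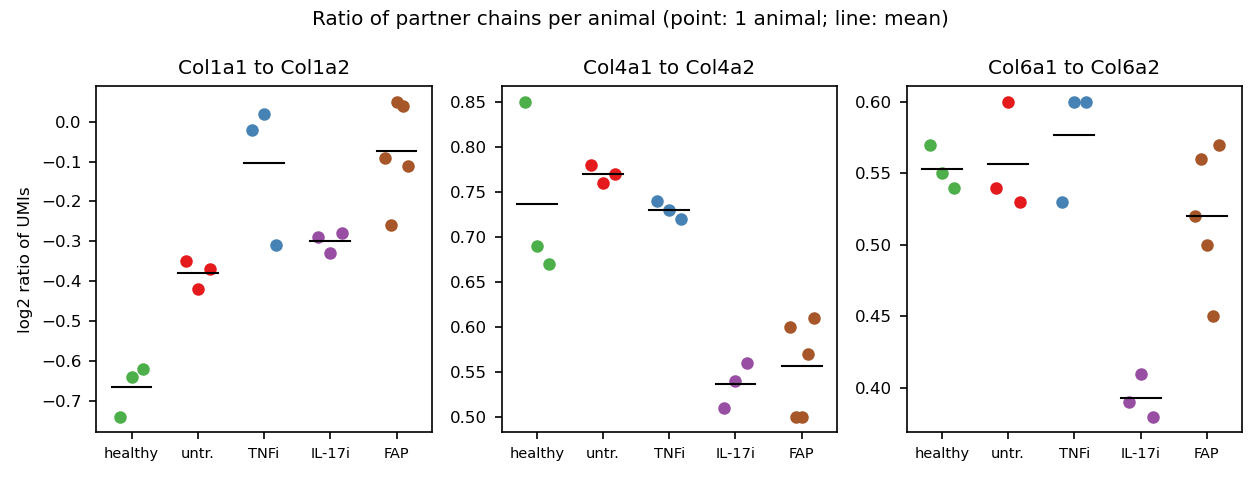
Log2 ratio of UMIs of paired collagen chains (vertical axis) in each of the 17 animals (points) by group, for Col1a1 to Col1a2, Col4a1 to Col4a2 and Col6a1 to Col6a2. Healthy animals are lowest for the type I pair, at -0.74 to -0.62, and IL-17-inhibited animals for the type VI pair, at 0.38 to 0.41.

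FAP is a surface protease of activated fibroblasts, and the FAP-sorted cells of 5 arthritic animals were compared with the fibroblasts of the 3 untreated arthritic animals. More collagens were higher than lower in the sorted cells. Of 32 collagens tested 18 were higher and 3 lower (65.6%, against 42.9% of 13418 genes, 21.3% higher and 21.5% lower), with a median log2 fold change of 0.43 against -0.01 over all genes. Sort, library and the software version named in the file headers were the same split of the animals and cannot be told apart. Collagens were 2.13% to 3.75% of the UMIs of the 5 sorted animals and 1.49% to 1.63% of those of the 3 untreated ones, without overlap (exact permutation p = 0.0357, adjusted p = 0.0571). Fibrillar collagens alone were 1.77% to 3.33% against 1.15% to 1.27%, with the same exact permutation p and adjusted p, so neither share passed after adjustment.

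Of the 11 fibrillar collagens 7 were higher and none lower. Col1a1 stood at 5636, 4629, 7630, 9738 and 5746 CPM in the sorted and 2651, 2580 and 2863 CPM in the untreated animals (log2 1.30 ± 0.21, edgeR adjusted p = 9.4e-04). Col3a1 stood at 9013, 6553, 10928, 14260 and 9006 against 4435, 4045 and 4580 CPM (1.19 ± 0.20, edgeR adjusted p = 0.0013). Every sorted animal was above every untreated one for both. Col11a1 had the largest fold change among the fibrillar chains that passed, from 20.2, 25.1 and 29.2 CPM to 61.4, 75.2, 58.7, 103 and 68.2 CPM (1.55 ± 0.18, edgeR adjusted p = 2.7e-04). Col1a2 (0.98 ± 0.15), Col5a1 (1.07 ± 0.19), Col5a2 (0.64 ± 0.11) and Col24a1 (1.12 ± 0.25) were the others that rose, each with an edgeR adjusted p of at most 0.0048. Col5a3 (0.36) did not pass (edgeR adjusted p = 0.09).

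Of the 8 network collagens 5 rose, namely Col6a1 (0.41 ± 0.09), Col6a2 (0.45 ± 0.11), Col6a3 (0.30 ± 0.11), Col8a1 (0.70 ± 0.17) and Col8a2, the last by 1.33 ± 0.21 (edgeR adjusted p = 9.4e-04). Of the 5 FACITs tested Col9a1 (1.67 ± 0.59, under 2 CPM in every animal), Col12a1 (1.12 ± 0.13, edgeR adjusted p = 2.6e-04), Col14a1 (0.58 ± 0.15) and Col16a1 (0.65 ± 0.13) rose, and Col22a1, the collagen highest in the lining, fell (-0.81 ± 0.22, edgeR adjusted p = 0.015). Of the 7 basement membrane collagens Col18a1 (0.41 ± 0.13) rose and Col4a4 (-1.79 ± 0.39) and Col4a5 (-0.91 ± 0.27) fell, while Col4a1 (-0.22, edgeR adjusted p = 0.092) and Col4a2 (-0.01, edgeR adjusted p = 0.94) did not pass. Col4a1 in the sorted animals ranged from 543 to 752 CPM, which overlaps the 715 to 834 CPM of the untreated ones. Single left-out animals ended the calls of Col4a5, Col6a3, Col9a1 or Col18a1 and of no other collagen that was still tested.

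The sorted cells were also compared within classes. Within lining fibroblasts 13 of 17 collagens were higher in sorted cells and none lower (background 8.44%), in Mmp3+ 14 of 28 (background 37.7%) and in Il6+ 14 of 24 (background 25.6%). Col1a1 rose by 1.16 ± 0.18 in the lining, 1.36 ± 0.18 in Mmp3+ and 0.78 ± 0.13 in Il6+ fibroblasts, each with an edgeR adjusted p of at most 0.0016. In Cd200+ fibroblasts (background 2.85%) and osteoblasts (background 0.681%) edgeR called 0 of 21 and 0 of 24, with 5 and 4 at an unadjusted p under 0.05. In the class labelled chondrocytes, with 3 animals a group, 4 of 22 were lower and none higher (background 1.21%), among them Col3a1 (-1.10 ± 0.19, edgeR adjusted p = 0.018) and Col1a1 (-0.96 ± 0.13, 0.0069). Differences between classes were not tested for this contrast. The 4 tendon markers summed to 526 to 813 CPM in sorted and 172 to 322 CPM in untreated fibroblasts, and the 4 neutrophil markers to 103 to 136 against 44.3 to 55 CPM. Chondrocyte (1546 to 2018 against 1264 to 1319 CPM) and leukocyte sums (31.2 to 64.4 against 20.6 to 25.1) were higher too. Muscle (2.65 to 4.01 against 157 to 217 CPM), endothelial (0.417 to 1.23 against 4.8 to 6.23) and lining sums (4973 to 6194 against 6948 to 10305) were lower. So were the mural, Schwann cell, keratinocyte and erythroid sums, all without overlap. Mmp3+ cells were 51.5% to 73.6% of sorted and 36.1% to 43% of untreated fibroblasts. Il6+ cells were 12% to 24.5% against 42.5% to 50.6%, and lining cells 3% to 4.4% against 5.67% to 6.63%. The part of these markers and of this class mix in the collagen differences was not tested.

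Genes that fold, modify, crosslink, bind and break down collagen were counted beside the collagens, without a test of the lists. Of 21 chaperones and modifying enzymes, 14 were higher and 1 lower in untreated than in healthy animals, with a median of 0.42. Over all genes tested in this comparison 14.4% were higher and 14.3% lower, which is the background of all 4 lists. P4ha3, a prolyl hydroxylase subunit, rose by 1.61 ± 0.17 (edgeR adjusted p = 1.5e-05) and P3h2 by 1.09, while Colgalt2, which adds sugar to collagen, fell by 2.88 ± 0.41 (edgeR adjusted p = 1.6e-04). Of 13 genes of propeptide cleavage and crosslinking 4 rose and 5 fell. Lox, which crosslinks fibrils, rose by 1.52 ± 0.10 (edgeR adjusted p = 5.6e-07) and Pcolce2, an enhancer of propeptide cleavage, fell by 2.57 ± 0.21. Of 10 receptors 2 rose and 4 fell, with Itga1, a collagen-binding integrin subunit, at 2.44 ± 0.18 and Itga11 at -1.92. Of 6 genes of collagen breakdown 4 rose and none fell, led by Mmp9 (2.75) and the collagenase Mmp13 (2.72 ± 0.24, edgeR adjusted p = 4.2e-06).

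With TNF inhibition, where 3.02% of all genes were lower, 1 of the 21 chaperones and modifying enzymes (P4ha3), 3 of 13 cleavage and crosslinking genes (Pcolce2, Tll1 and Loxl1), 1 of 10 receptors (Itga1) and 0 of 6 breakdown genes changed, all downwards. With IL-17 inhibition, with 3.8% of all genes higher and 4.65% lower, Lox fell by 0.76 ± 0.10 (edgeR adjusted p = 0.0021), Itga11 rose by 0.94 and Mmp9 by 1.20. In FAP-sorted against untreated cells 12 of the chaperones and modifying enzymes were higher and 2 lower (against 21.3% and 21.5% of all genes), with P3h1 at 0.97, Fkbp10 at 0.85 and P3h4 at 0.80, and all 4 breakdown genes that passed were higher.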

How the data were processed

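Single-cell libraries of synovial cells and their hashtag libraries were analysed. The values are UMI counts per gene and cell as the authors deposited them, with the authors' annotation of cells to 7 classes and 17 animals. Per the file headers, Cell Ranger 6.0.0 made the counts of the unsorted and 5.0.0 those of the FAP-sorted cells. Cell Ranger 6.0.6 and mm10 stand in the submitters' processing notes. Doublets were treated by the authors' annotation alone: 24227 of 47658 barcodes carry a class, and the others were left out. The labels do not say how cells were assigned to hashtags.

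Counts were summed per animal over the 5 fibroblast classes, or per class with at least 20 cells. Cells are not replicates, and the animals are. Tests used edgeR 4.0.16 (TMM, filterByExpr, quasi-likelihood test, Benjamini-Hochberg over all genes tested, threshold 0.05) in R 4.3.3 with limma 3.58.1, and exact permutation tests for shares and ratios. CPM were computed here from the total UMIs of an animal's fibroblasts, or of its class. Exact intervals cover counting error only. On simulated counts of the untreated against healthy comparison (14083 genes), 56.6% of changes of 1 on the log2 scale and 84.5% of changes of 2 were recovered, and 4.83% of the calls were false.

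Members and lists were chosen with earlier results of these data known. Named with values are the collagens past the threshold and, of the others, those with 100 CPM or more in either group, and of the other lists up to 4 genes past the threshold with the largest changes. Col4a3, Col6a1 and Col2a1 are also given where a neighbour, a partner or a class label turns on them. Alternatives were RLE size factors, DESeq2 1.42.0, no filter, other class sets, cells, library terms and left-out animals. Alternatives with the healthy animal of the untreated library only for the inhibited groups, without healthy cells holding a Y-linked UMI, and with FAP-sorted cells compared within classes were chosen after seeing the data. Whether a replicate number marks a shared litter or day is not given.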

Additional observations from a re-analysis of the deposited data

Results flagged for a closer look

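For 6 collagens the effect of arthritis (9 arthritic against 3 healthy animals) differed between lining and Il6+ fibroblasts by a test of the difference itself, an edgeR interaction term with the animal as a block. This pair was an alternative to the main one, Cd200+ against Il6+ fibroblasts, in which 0 of 26 collagens were called. The difference, lining minus Il6+, was 1.33 for Col3a1, 1.49 for Col5a2, 1.58 for Col6a3, 1.46 for Col5a3, 0.63 for Col6a1 and -3.15 for Col8a1 on the log2 scale. The own effects were 1.80 in the lining and 0.31 in Il6+ fibroblasts for Col5a2, 0.17 and -0.46 for Col6a1, and -3.81 and -0.75 for Col8a1. Lining fibroblasts of the 3 healthy animals rested on 49, 42 and 23 cells. Col8a1 averaged 7.53 CPM in the lining, its lowest class, so its effect there rests on few counts. Of these animals' fibroblasts, 10.2% to 35.4% had their own hashtag as the highest.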

How the results depend on the processing

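The healthy group limits most of these results, with 3 animals and few lining, Mmp3+ and osteoblast cells. Of the 21 collagens called between untreated and healthy animals, 11 were called with the library as a further term and 11 against only that healthy animal which shared the untreated library, all 21 in the same direction. With equal weight of Il6+, Cd200+ and lining classes 11 were called, of which 9 were among the 21, and Col27a1 (-0.28), Col6a6 (0.33) and Col22a1 (0.16) changed direction. With cells whose own hashtag was highest, 17 were called, and the log2 ratio of Col4a1 to Col4a2, healthy minus arthritic, turned to -0.102.

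In TNF-inhibited against untreated animals 3 became 5 with DESeq2, 5 with no filter on low counts and 0 with the library term. In IL-17-inhibited against untreated animals 3 became 7, 8, 5 with all 7 classes and 0 with the library term. Between the inhibited groups 6 became 10 without the filter, 14 with all 7 classes and 0 with the library term. Against healthy animals, 24 for TNF inhibition became 14 with the library term and 15 with the 1 healthy animal, and 21 for IL-17 inhibition became 9 and 12. For FAP-sorted cells 21 became 13 within the lining, 0 within Cd200+ fibroblasts, 4 within the class labelled chondrocytes and 0 within osteoblasts, where fewer collagens and cells were tested. The difference between classes was called for 0 collagens with Cd200+ and 6 with lining fibroblasts. With all 7 classes Col9a1 turned to 0.03 (arthritic against healthy) and -0.49 (FAP-sorted), Col11a1 to -0.31 (TNF-inhibited against healthy), and the collagen share of UMIs, arthritic groups, spread over 0.52 percentage points (adjusted p = 0.0286, exact permutation test) in place of 0.267. The causes were not tested beyond these constructions.

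Leaving out each animal in turn gave 16 to 20 calls for untreated and 17 to 27 for all arthritic against healthy animals, 0 to 5 for TNF-inhibited and 1 to 5 for IL-17-inhibited against untreated animals, 4 to 11 between the inhibited groups, 18 to 25 and 15 to 22 for them against healthy animals, and 17 to 24 for FAP-sorted cells. The collagen share of UMIs, arthritic groups, spread over 0.0625 to 0.419 percentage points, the latter without TNF-inhibited animal 1 (adjusted p = 0.0229, exact permutation test), and healthy minus arthritic ran from -0.0541 to 0.0705. With 2 animals in a group, the spread is taken from all groups of the fit.

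Deviations of same-numbered animals from their group means were weakly correlated (-0.17 to 0.16 over genes). With means of 3 animals a group this cannot tell whether the numbers mark a shared litter or day, and the main fits used no pairing. With the replicate number as a replicate block 2, 1 and 5 collagens were called between the arthritic groups in the order TNF-inhibited and IL-17-inhibited against untreated and IL-17-inhibited against TNF-inhibited animals, and 20 for FAP-sorted cells.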
